A study of Gallus gallus with 9 samples.

Results

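Collagens, laminins, nidogens, integrin subunits and a set of matrix glycoproteins were followed in cultured explants of chick (Gallus gallus) splanchnic mesoderm from the anterior heart field (AHF). The members were chosen by symbol, with earlier results of these data known. They are the genes whose array annotation gives 1 symbol of the COL, LAMA, LAMB, LAMC, ITGA or ITGB series, and the genes FN1, TNC, SPARC, POSTN, FBN1, FBN2, FBLN1, FBLN2, LUM, DCN, NID1 and NID2. The rule found 85 of the 13009 named genes on the array, carried by 231 probe sets, and the brightest probe set of a gene, by its mean over the arrays, stands for it. The 85 genes are 41 collagens, 11 laminins, 2 nidogens, 10 glycoproteins and small proteoglycans, 16 integrin subunits, and 5 genes that match by spelling only. These 5 are ITGB1BP1, ITGB1BP3, ITGB3BP, ITGBL1 and COL4A3BP, and COL4A3BP, for example, encodes a ceramide transfer protein rather than a collagen.

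Explants were taken at 0 h, or were grown for 3, 12 or 24 h on a drop of collagen under medium with fetal calf serum and chick embryo extract. They were left untreated or received human recombinant BMP4 at 200 ng/mL, so all cultured groups share the collagen drop, the serum and the embryo extract. Total RNA of each sample was hybridised to 1 Affymetrix array. The 9 arrays form 7 groups, with 2 arrays (A and B) for each arm at 12 h and 1 array for every other group.

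Collagens are trimeric proteins that build fibrils, decorate them, form networks or span the cell membrane. Laminin trimers and type IV collagen form the sheets of the basement membrane, and nidogens link them. Integrins are alpha-beta receptors through which cells grip these proteins and fibronectin. In the embryo, splanchnic mesoderm lies on the basement membrane of the pharyngeal endoderm, and matrix secreted by early heart tissue fills the space between myocardium and endocardium.

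Signal is the deposited MAS5 intensity of a probe set on a linear scale, whose median was 67.17 to 67.67 per array. Levels of different genes are not compared here, since probe sets differ in response. Of the 85 members, 78 passed the filter on dim signal. The other 7 (COL4A4, COL9A2, COL10A1, COL25A1, COL28A1, ITGB6 and LAMB3) ranged from 6.13 to 68.96 over all arrays and were not tested. Differences are given on a log2 scale after adding 27.79 to the signal, with the standard error from the fit after ±. Calls were made with limma where p, adjusted after Benjamini and Hochberg over all 28329 probe sets tested, was under 0.05. The labels do not say whether A and B came from separate explants, so the p-values reflect only how far these samples spread, which may be technical. At 12 h the median difference between A and B over the members tested was 0.25 without BMP4 and 0.33 with it. The same medians over all named genes tested were 0.25 and 0.24. The ACTB controls, which bear on RNA quality, had 3′ over 5′ signal ratios of 3.72 to 5.67 over the 9 arrays. At 12 h the ratio was 5.44 on the untreated and 5.50 on the BMP4 array A, and 3.80 and 4.26 on the B arrays. No limit was set for this ratio, and its part in the results was not tested. Of the AHF marker list, all 8 genes with a probe set passed the filter. So did all 12 endothelial, all 12 cardiomyocyte and all 10 epithelial and endodermal markers, so passing does not set AHF mesoderm apart.

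Time in culture was the comparison in which the most members differed. From 3 h to 24 h, over both agents, 11 of the 78 members (14.1%) rose and 6 (7.69%) fell. Over all 11690 named genes tested the same comparison called 5.65% higher and 4.32% lower. The median member difference was 0.04, beside -0.01 over all named genes. By family, 5 of 36 collagens rose and 3 fell, 1 of 10 laminins rose and none fell, 3 of 10 glycoproteins and small proteoglycans rose and 1 fell, and 2 of 15 integrin subunits rose and 2 fell. Neither nidogen and none of the 5 spelling matches were called. At an unadjusted p under 0.05, 1 nidogen and 1 spelling match were higher and 0 lower. The test used 2 arrays at 3 h and 2 at 24 h, the untreated and the BMP4 array of each time, with the 12 h arrays adding to the estimate of spread. A difference between the arms in their change over time also enters that spread.

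**Figure D1:**
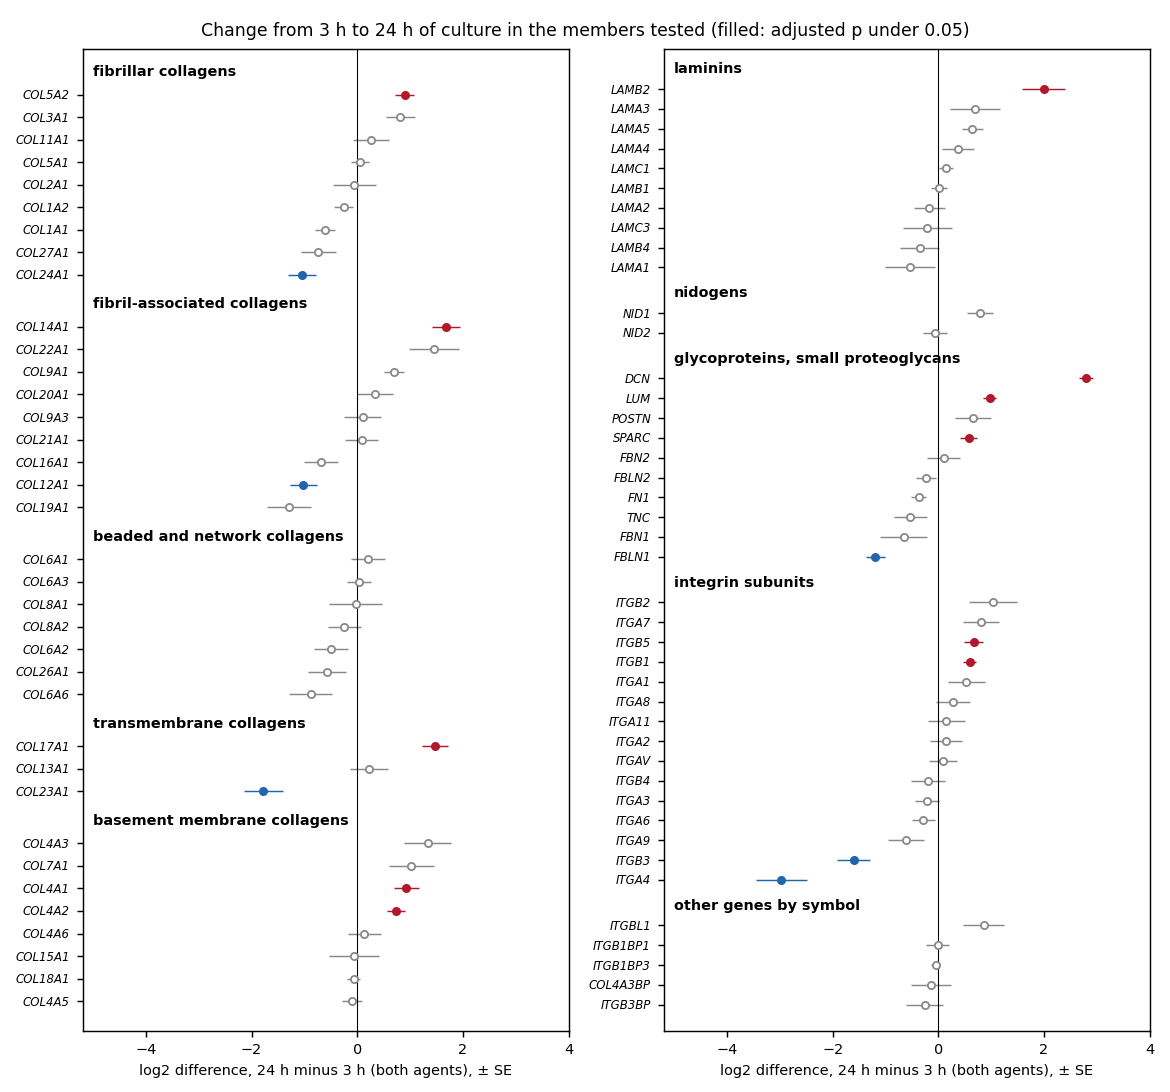
The log2 difference between 24 h and 3 h over both agents (horizontal axis) is plotted for each of the 78 members tested, grouped by family, with bars for the standard error. Filled red points mark the 11 members that rose and filled blue points the 6 that fell at an adjusted p under 0.05, and open grey points mark the others.

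The small leucine-rich proteoglycans decorin and lumican rose in both arms. Decorin (DCN), which coats collagen fibrils and binds growth factors, read 720.2 at 0 h, 1250.01 at 3 h, 5853 and 5486 at 12 h and 9377 at 24 h without BMP4. With BMP4 its signal was 1330.5 at 3 h, 6032 and 5264 at 12 h and 8822 at 24 h. Both 24 h arrays lay above all 12 h arrays, which lay above both 3 h arrays, and the treated and untreated values at 3 h and at 24 h were close to each other. The rise from 3 h to 24 h was 2.79 ± 0.14 (6.93-fold, limma adjusted p = 2.6e-07). The BMP4 difference across times was -0.0039 ± 0.10 (adjusted p = 0.996).

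Lumican (LUM), which spaces collagen fibrils, measured 5237 at 0 h, 10621 at 3 h, 20735 and 21504 at 12 h and 21339 at 24 h in untreated explants. On the BMP4 arrays the LUM signal was 11514 at 3 h, 20001 and 16663 at 12 h and 21999.5 at 24 h. Every array from 12 h on lay above both 3 h arrays, and the untreated signal did not go on climbing between 12 h and 24 h. LUM rose by 0.97 ± 0.12 from 3 h to 24 h (adjusted p = 0.000352) and was the 1 member called at 3 h against 0 h, by 1.02 ± 0.16 (adjusted p = 0.0373). LUM and DCN are neighbours in the order of protein-coding genes of the RefSeq assembly GRCg7b. The next gene on the LUM side, KERA, which encodes the related proteoglycan keratocan, was 1.22 ± 0.38 from 3 h to 24 h (adjusted p = 0.0771) and was not called.

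Fibulin-1 (FBLN1), a glycoprotein of basement membranes and elastic fibres, moved the other way. Its untreated signal was 6905 at 0 h, 5941 at 3 h, 3437 and 3070.03 at 12 h and 2195 at 24 h. With BMP4 it was 5803 at 3 h, 4209.6 and 2953 at 12 h and 2968 at 24 h. The 0 h and 3 h arrays were above all later ones. FBLN1 fell by 1.19 ± 0.18 from 3 h to 24 h (adjusted p = 0.00181), and 2 of its 3 probe sets shared that sign, with differences from -1.19 to 0.14.

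SPARC, a collagen-binding matricellular protein, read 5363 at 0 h, 6095 at 3 h, 6384 and 8194 at 12 h and 7784 at 24 h untreated and 7246 at 3 h, 7828 and 9437 at 12 h and 12652 at 24 h with BMP4. The 24 h signals were above those at 3 h in each arm. The rise of 0.58 ± 0.16 was close to the threshold (adjusted p = 0.0494), and the call was lost without the untreated 12 h array A (adjusted p = 0.063) or the BMP4 12 h array B (adjusted p = 0.065).

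Fibronectin (FN1), an integrin ligand of early mesoderm, was among the glycoproteins that were not called. It gave 16271 at 0 h, 14619 at 3 h, 13399.8 and 14548 at 12 h and 13913 at 24 h untreated and 19101 at 3 h, 13683 and 16870 at 12 h and 11922 at 24 h with BMP4. The difference from 3 h to 24 h was -0.37 ± 0.14 (adjusted p = 0.147), and the arrays of the arms overlapped. The fibulin FBLN2 was at -0.24 ± 0.19, the fibrillins FBN1 and FBN2, which build microfibrils, at -0.66 and 0.10, tenascin-C (TNC) at -0.53 and periostin (POSTN) at 0.66, none of them called.

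**Figure D2:**
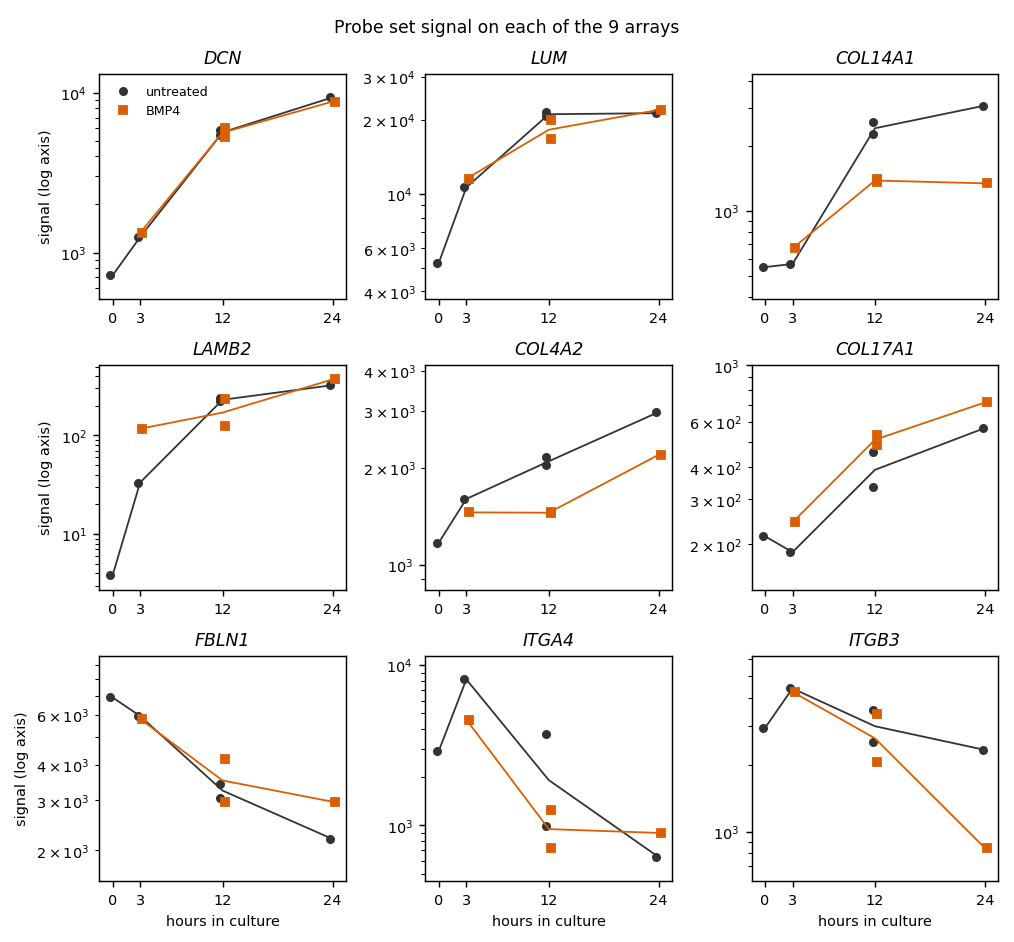
Signal of 9 members (vertical axes, log scale) against hours in culture, with black circles for untreated and orange squares for BMP4 arrays, 1 point per array. Lines join the geometric means of each time. DCN and LUM climbed alike in both arms, COL14A1 climbed further without BMP4, and FBLN1, ITGA4 and ITGB3 were lower at 24 h than at 3 h.

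Among the fibrillar collagens, which form the tensile fibrils of connective tissue, COL5A2 rose and COL24A1 fell. COL5A2, a chain of type V collagen that starts fibrils, read 1362 at 0 h, 1607 at 3 h, 1742 and 1698 at 12 h and 2487 at 24 h untreated. With BMP4 it was 1897 at 3 h, 2648 and 2445 at 12 h and 4292 at 24 h. At each time every BMP4 array was above every untreated array of the same time. COL5A2 rose by 0.89 ± 0.17 from 3 h to 24 h (adjusted p = 0.00789). COL24A1, a minor fibrillar collagen, measured 2480.2 at 0 h, 4378 at 3 h, 4101 and 2763 at 12 h and 1399 at 24 h untreated and 3369 at 3 h, 4079 and 2679 at 12 h and 2435 at 24 h with BMP4. The untreated 24 h array was the lowest of the 9, while the BMP4 24 h array was close to that of 0 h. COL24A1 fell by 1.05 ± 0.27 (adjusted p = 0.0363), with -1.63 without BMP4 and -0.46 with it.

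The major type I chains were not called for time. COL1A1 gave 5737 at 0 h, 6919 at 3 h, 6487 and 9732 at 12 h and 5334 at 24 h untreated and 10807 at 3 h, 9052 and 11692 at 12 h and 5949.7 at 24 h with BMP4, a difference of -0.62 ± 0.19 from 3 h to 24 h (adjusted p = 0.0703). COL1A2 gave 2962 at 0 h, 3171 at 3 h, 3187 and 4092 at 12 h and 2609 at 24 h untreated and 2825 at 3 h, 2769.9 and 2492 at 12 h and 2386 at 24 h with BMP4, a difference of -0.26 ± 0.17 (adjusted p = 0.453). The COL1A1 difference from 3 h to 24 h was called when the untreated 12 h array B was left out. COL1A1 was higher with BMP4 at 3 h and 24 h, and the arms overlapped at 12 h. Every COL1A2 signal with BMP4 was below the untreated signals of its time. The other fibrillar collagens not called were COL2A1 (-0.06), COL3A1 (0.81), COL5A1 (0.06), COL11A1 (0.26) and COL27A1 (-0.74).

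Of the fibril-associated collagens, which sit on the surface of fibrils, COL14A1 rose and COL12A1 fell. COL14A1 measured 549.5 at 0 h, 568 at 3 h, 2584 and 2263 at 12 h and 3080.5 at 24 h without BMP4. With BMP4 it was 671 at 3 h, 1409.7 and 1359 at 12 h and 1343 at 24 h. All 12 h and 24 h arrays lay above both 3 h arrays, and from 12 h on every BMP4 array lay below every untreated array. The rise over both agents was 1.68 ± 0.27 (3.2-fold, adjusted p = 0.00234), with 2.38 without BMP4 and 0.97 with it. All 5 of its probe sets tested had this sign, with differences from 0.18 to 2.63, and their mean gave 0.87 (adjusted p = 0.058).

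COL12A1, which is known from tendons and other stretched tissues, read 357 at 0 h, 930.1 at 3 h, 1050.2 and 1026 at 12 h and 569.9 at 24 h untreated and 1067 at 3 h, 669.7 and 559.6 at 12 h and 397 at 24 h with BMP4. Its signal was lowest at 0 h, was higher by 3 h and was lower again at 24 h in both arms. It fell by 1.02 ± 0.25 from 3 h to 24 h (adjusted p = 0.0291), with -0.68 untreated and -1.37 with BMP4. Of the other 7 tested in this class, COL22A1 (1.45 ± 0.47, adjusted p = 0.0925), COL9A1 (0.69 ± 0.20, adjusted p = 0.053) and COL19A1 (-1.29 ± 0.41, adjusted p = 0.0847) came closest to the threshold.

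The transmembrane collagens split. COL17A1, the collagen of the hemidesmosomes by which epithelia hold on to the basement membrane, gave 215 at 0 h, 187 at 3 h, 458 and 334 at 12 h and 569 at 24 h untreated and 244 at 3 h, 489.6 and 536 at 12 h and 717 at 24 h with BMP4. Both 24 h signals were above all others, and both 3 h signals were below all 12 h signals. COL17A1 rose by 1.47 ± 0.24 (2.76-fold, adjusted p = 0.00291). COL23A1, which is shed from the cell surface, fell by 1.78 ± 0.37 (adjusted p = 0.0115), with -0.75 untreated and -2.81 with BMP4. Its values on every array are given with the BMP4 comparison. None of the 7 beaded and network collagens tested was called for time. Their differences ran from -0.88 (COL6A6) to 0.20 (COL6A1), and 1 of them had an unadjusted p under 0.05.

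Of the 8 basement membrane collagens tested, the paired chains of the common type IV network rose. COL4A1 read 268 at 0 h, 332 at 3 h, 458 and 449 at 12 h and 664 at 24 h untreated and 194 at 3 h, 332 and 335 at 12 h and 391 at 24 h with BMP4. COL4A2 read 1171 at 0 h, 1600.3 at 3 h, 2153 and 2038 at 12 h and 2981 at 24 h untreated and 1453 at 3 h, 1443 and 1456 at 12 h and 2195 at 24 h with BMP4. For both chains the BMP4 array was below the untreated array at 3 h and at 24 h, and both BMP4 12 h arrays were below both untreated ones. COL4A1 rose by 0.93 ± 0.24 (adjusted p = 0.0343) and COL4A2 by 0.74 ± 0.17 (adjusted p = 0.0225). The COL4A1 call was lost without the BMP4 12 h array B (adjusted p = 0.051). It rests on the 1 of 3 probe sets that passed the filter, and the mean over the 3 probe sets gave 0.25 (adjusted p = 0.54). The 6 probe sets of COL4A2 all had the same sign, from 0.22 to 0.87.

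Chains of the other type IV networks and the remaining basement membrane collagens were not called. COL4A5 was at -0.10 ± 0.19, COL4A6 at 0.13 ± 0.31, COL4A3 at 1.33 ± 0.45 (adjusted p = 0.104) and COL7A1, the anchoring fibril collagen, at 1.02 ± 0.42 (adjusted p = 0.181). COL15A1 and COL18A1, which carry sugar chains in basement membrane zones, were at -0.06 and -0.07.

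Among laminin chains, LAMB2 alone was called for time. LAMB2, the beta chain of basement membranes at muscle and vessel walls, gave 3.83 at 0 h, 33.4 at 3 h, 223 and 237 at 12 h and 324 at 24 h untreated and 117 at 3 h, 124 and 236 at 12 h and 371 at 24 h with BMP4. Both 24 h signals were above all others, and the 0 h signal was below the added 27.79, so differences from 0 h depend on that amount. The rise from 3 h to 24 h was 1.99 ± 0.40 (adjusted p = 0.0101). The second LAMB2 probe set had the opposite sign, at -0.26, and the mean of both gave 0.86 (adjusted p = 0.18).

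The alpha, beta and gamma chains of the classical early embryonic laminin were not called for time. LAMA1 read 216 at 0 h, 125 at 3 h, 273 and 185 at 12 h and 226 at 24 h untreated and 248 at 3 h, 93.7 and 158 at 12 h and 51.2 at 24 h with BMP4, and the arms crossed, so that the difference over both was -0.54 ± 0.48 (adjusted p = 0.594). LAMB1 was 8956 at 0 h, 6815 at 3 h, 5251 and 4446 at 12 h and 6334 at 24 h untreated and 7389 at 3 h, 6949 and 5433 at 12 h and 8004 at 24 h with BMP4, a difference of 0.0049 ± 0.15. LAMC1, the gamma chain shared by most laminins, was 6008 at 0 h, 6277 at 3 h, 7038 and 6333 at 12 h and 6873 at 24 h untreated and 5969 at 3 h, 7108 and 5855 at 12 h and 6739 at 24 h with BMP4, a difference of 0.15 ± 0.13. Both LAMC1 signals at 24 h were above both at 3 h, but the 12 h signals ran from below the 3 h to above the 24 h signals. The arms overlapped at 12 h. LAMA5, an epithelial and vascular chain, came closest of the rest (0.64 ± 0.19, adjusted p = 0.0663). It was called, with the same difference, when the untreated 12 h array B was left out.

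The nidogens were not called for time. NID2 was 436 at 0 h, 687 at 3 h, 645 and 669.98 at 12 h and 672 at 24 h untreated and 579.6 at 3 h, 697 and 740.4 at 12 h and 541 at 24 h with BMP4, a difference of -0.06 ± 0.22 (adjusted p = 0.917). NID1 differed by 0.79 ± 0.25 (adjusted p = 0.0821).

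Of the integrin subunits, ITGB1 and ITGB5 rose while ITGA4 and ITGB3 fell. ITGB1, the beta chain of most matrix-binding integrins, gave 6552 at 0 h, 7225 at 3 h, 8048 and 7147 at 12 h and 9851 at 24 h untreated and 6522 at 3 h, 8225 and 7435 at 12 h and 10896 at 24 h with BMP4. Both 24 h arrays were above all the others. It rose by 0.59 ± 0.13 (adjusted p = 0.0135), and both of its probe sets had this sign.

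ITGB5, which pairs with the alpha V chain to bind vitronectin, read 6148 at 0 h, 3181 at 3 h, 5044 and 4536 at 12 h and 6404 at 24 h untreated and 3134 at 3 h, 4842 and 5073 at 12 h and 3972 at 24 h with BMP4. The 0 h and untreated 24 h signals were the highest and the 3 h signals the lowest. ITGB5 rose by 0.67 ± 0.18 (adjusted p = 0.0417), with 1.003 untreated and 0.34 with BMP4. Its call was lost without the untreated array A (adjusted p = 0.064), the BMP4 array A (0.057) or the BMP4 array B (0.052) of 12 h.

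ITGA4, a chain that binds fibronectin and the adhesion molecule VCAM1, gave 2921 at 0 h, 8154 at 3 h, 3709.5 and 992 at 12 h and 635 at 24 h untreated and 4578 at 3 h, 1245 and 723 at 12 h and 898 at 24 h with BMP4. Both 3 h arrays were above all later ones and above 0 h. The untreated 12 h arrays differed by 1.87 on the log2 scale, the widest gap between A and B among the members. ITGA4 fell by 2.97 ± 0.49 from 3 h to 24 h (7.84-fold lower, adjusted p = 0.00282). ITGB3, another partner of alpha V, read 2927 at 0 h, 4406 at 3 h, 2528 and 3509 at 12 h and 2329.9 at 24 h untreated and 4251 at 3 h, 2053 and 3366 at 12 h and 843 at 24 h with BMP4. The BMP4 24 h array was the lowest of the 9. ITGB3 fell by 1.60 ± 0.31 (adjusted p = 0.00811), with -0.91 untreated and -2.30 with BMP4. Of its 3 probe sets 2 shared this sign.

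The other 11 integrin chains tested were not called for time. The alpha V chain itself (ITGAV) was 198 at 0 h, 309 at 3 h, 261 and 361 at 12 h and 322 at 24 h untreated and 280.1 at 3 h, 323 and 399 at 12 h and 311 at 24 h with BMP4, a difference of 0.09 ± 0.27. ITGA6, a laminin receptor chain, was 752 at 0 h, 1179 at 3 h, 1113 and 909.9 at 12 h and 991 at 24 h untreated and 1021 at 3 h, 822 and 638 at 12 h and 809 at 24 h with BMP4, a difference of -0.29 ± 0.21. The ITGAV arms overlapped at 12 h, while every ITGA6 signal with BMP4 was below the untreated signals of its time. The collagen receptor chains ITGA1, ITGA2 and ITGA11 were at 0.53, 0.14 and 0.15. ITGB2, the leukocyte beta chain, stayed at signals of 11.13 to 65.46 on the 9 arrays.

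Marker genes of several cell types moved over the same time. From 3 h to 24 h, 10 of 12 cardiomyocyte markers rose, 4 of 12 endothelial and 3 of 10 epithelial and endodermal markers rose, and 5 of 7 neural crest markers fell. The other lists had 1 of 8 neural, 1 of 10 cartilage and notochord and 2 of 8 AHF markers lower and 0 of 6 blood markers called (limma, 1 at an unadjusted p under 0.05). Over all named genes tested, 5.65% were higher and 4.32% lower. The arms differed in the neural and AHF lists. Without BMP4, 5 of 8 signs were positive in each, with medians of 0.13 and 0.24. With BMP4, 6 of 8 neural and all 8 AHF signs were negative, with medians of -0.79 and -0.91. The cartilage and notochord list holds 5 genes that are themselves members. The summed signal of the cardiomyocyte list was 20216 and 25849 at 3 h and 70615 and 138125 at 24 h, untreated first. For the endothelial list it was 7161 and 6792 against 14294 and 11671. For the epithelial and endodermal list it was 30469.9 and 32466 against 42851 and 47437. Bright genes weigh most in such a sum. By sign, 6 of these 10 markers were higher and 4 lower over both agents, with a median difference of 0.10. The neural crest list summed to 13740.3 and 12776 at 3 h and 10404 and 5418 at 24 h. In none of these lists did a gene stay under 27.79 on all arrays. Their part in the matrix results was not tested, and in whole explants fewer cells of a type and less RNA per cell cannot be told apart.

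The time course was also read within each arm, whose 3 h and 24 h arrays are separate. Untreated explants had 5 members (6.41%) higher and 2 (2.56%) lower at 24 h than at 3 h, beside 1.15% higher and 0.539% lower among all named genes. These were DCN, COL14A1, LAMB2, LUM and ITGB5, and FBLN1 and ITGA4. BMP4 explants had 5 (6.41%) higher and 3 (3.85%) lower, beside 3.48% and 2.87% among all named genes. Higher were DCN, NID1 (1.43 ± 0.26), COL3A1 (1.37 ± 0.26), COL5A2 and LUM, and lower were COL23A1, ITGB3 and COL12A1. DCN rose by 2.88 ± 0.21 without BMP4 and 2.70 ± 0.21 with it, and LUM by 1.005 ± 0.16 and 0.93 ± 0.16. Whether the arms differ is the test of the change of the BMP4 effect, given further on.

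**Figure D3:**
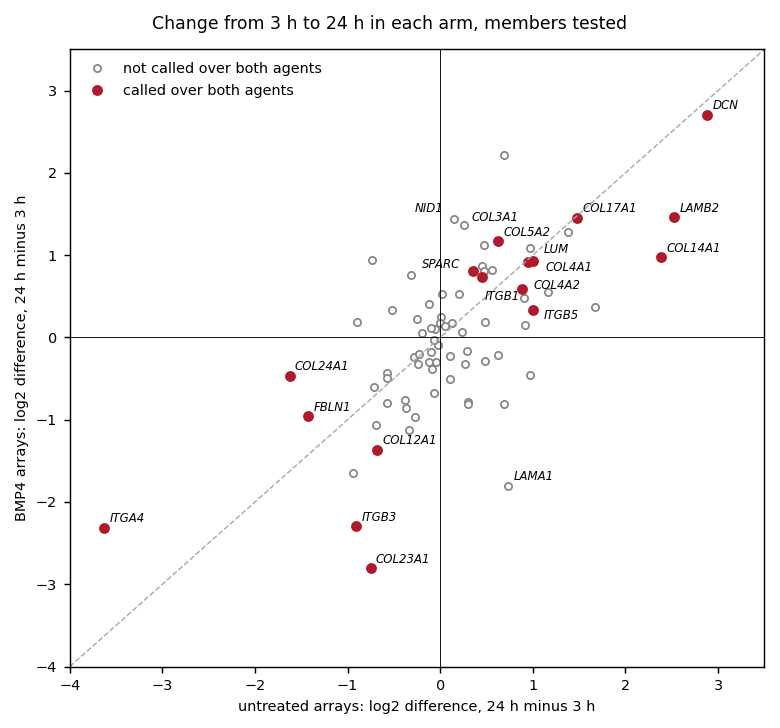
Each of the 78 members tested is plotted by its log2 difference between 24 h and 3 h on untreated arrays (horizontal axis) and on BMP4 arrays (vertical axis). Filled points are the 17 members called over both agents, and the dashed line marks equal change. DCN and LUM lie near that line, COL14A1 and LAMB2 below it, and NID1 and COL3A1 above it.

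Against freshly taken tissue, untreated explants had 1 member higher and 0 lower at 3 h, beside 0.496% higher and 0.0257% lower among all named genes. At an unadjusted p under 0.05 limma gave 6 higher and 4 lower. At 12 h, 5 members were higher and 0 lower, beside 1.24% and 0.24% (unadjusted 13 and 6). By 24 h, 5 (6.41%) were higher and 1 (1.28%) lower, beside 1.9% and 0.659%. Median member differences were 0.12, 0.18 and 0.15, and medians over all named genes were -0.01, -0.01 and -0.02. All of these comparisons share the lone 0 h array. Leaving out a 12 h array brought further calls against 0 h. At 12 h, LAMB1 (-0.89), FBLN1 (-1.08) and COL3A1 (1.04) were called when BMP4 array A or B was left out. At 24 h, ITGA4 (-2.15) was called when untreated array A or B was left out.

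With all arrays in the fit, all members called against 0 h were also called from 3 h to 24 h over both agents, COL12A1 with the opposite sign. The comparisons at 24 h share the untreated 24 h array, so this overlap is not independent evidence. DCN was 2.93 ± 0.19 at 12 h (adjusted p = 7.7e-05) and 3.65 ± 0.21 at 24 h (adjusted p = 4.7e-05). LUM was 2.01 ± 0.14 and 2.02 ± 0.16 (adjusted p = 0.00027), and COL14A1 was 2.08 ± 0.23 and 2.43 ± 0.27 (adjusted p = 0.00178). COL12A1 was called at 12 h (1.47 ± 0.27, adjusted p = 0.0325) and lost that call without either untreated 12 h array (adjusted p = 0.064 and 0.067). COL4A2 was higher (1.33 ± 0.24, adjusted p = 0.0265) and FBLN1 lower (-1.64 ± 0.26, adjusted p = 0.0137) at 24 h. Of the 6 COL4A2 probe sets 4 shared that sign at 24 h, with values from -0.89 to 1.37, and their mean gave 0.57 (adjusted p = 0.37). The mean over the COL14A1 probe sets gave 0.88 at 12 h (adjusted p = 0.20), where 4 of 5 had the sign, and 1.32 at 24 h (adjusted p = 0.081). For COL12A1 at 12 h the mean gave 0.96 (adjusted p = 0.16). LAMB2 was called at 12 h and 24 h, with the dim 0 h signal given above, and the means of its probe sets were not (adjusted p = 0.089 and 0.082).

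Further members were dim at 0 h and brighter on every cultured array without being called with all arrays in the fit. ITGA7, a laminin receptor chain of muscle, was 17 at 0 h, 108 at 3 h, 117 and 209.6 at 12 h and 162 at 24 h untreated and 219 at 3 h, 217 and 349 at 12 h and 510.2 at 24 h with BMP4. TNC, a glycoprotein of wounds and moving cells, was 25 at 0 h, 143 at 3 h, 131 and 109 at 12 h and 86.6 at 24 h untreated and 129.96 at 3 h, 154 and 106 at 12 h and 84.3 at 24 h with BMP4. The 24 h against 0 h values were 2.08 ± 0.49 (adjusted p = 0.074) for ITGA7 and 1.12 ± 0.46 (adjusted p = 0.324) for TNC. Omitting a single 12 h array, whichever it was, brought ITGA7 to a call at 24 h (adjusted p = 0.029 to 0.037), and the mean of its probe sets was called too (1.75, adjusted p = 0.034). Its 0 h signal was below the added 27.79, as was that of TNC, so these values depend on that amount.

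The BMP4 comparisons called 0 to 2 members each. Across the 3 culture times, 0 of the 78 members were called by limma, beside 1.15% higher and 0.71% lower among all named genes. At an unadjusted p under 0.05, 12 were higher and 9 lower, and the median was -0.05 beside -0.01 over all named genes. The fit across times takes a single BMP4 effect for all times, so an effect that changes with time adds to its spread. At 3 h 0 members were called, beside 0.0257% and 0.0% (unadjusted 3 higher, 1 lower). At 12 h 0 were called, beside 0.693% and 0.342% (unadjusted 7 higher, 8 lower). At 24 h NID1 was called higher and COL23A1 lower, 1.28% of the members each way, beside 0.436% and 0.778% among all named genes. At 24 h 8 members were higher and 7 lower at an unadjusted p under 0.05.

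NID1 encodes nidogen-1, which joins laminin to type IV collagen. Its untreated signal was 2306 at 0 h, 1835 at 3 h, 1974 and 1828 at 12 h and 2037 at 24 h. With BMP4 it was 1989.9 at 3 h, 3098 and 2373 at 12 h and 5424 at 24 h. At every time the BMP4 arrays were above the untreated ones, and the BMP4 24 h array was the highest of all. The difference was 0.12 ± 0.26 at 3 h, 0.51 ± 0.18 at 12 h and 1.40 ± 0.26 at 24 h, where it was 2.64-fold (adjusted p = 0.0419). The 3 probe sets tested all had this sign at 24 h, with differences from 0.24 to 1.40, and the mean over the probe sets gave 0.51 (adjusted p = 0.68).

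COL23A1 fell with BMP4. The untreated signal was 4726 at 0 h, 5853 at 3 h, 5387 and 3554 at 12 h and 3463 at 24 h. With BMP4 it was 4790.3 at 3 h, 3096 and 2126 at 12 h and 661 at 24 h. Every BMP4 array was below every untreated array of its time, and the 24 h value was far below the rest. The difference was -0.29 ± 0.33 at 3 h, -0.76 ± 0.23 at 12 h and -2.34 ± 0.33 at 24 h (5.07-fold lower, adjusted p = 0.0138). Its 3 probe sets agreed in sign at 24 h, from -2.34 to -0.20, and their mean gave -1.31 (adjusted p = 0.28).

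**Figure D4:**
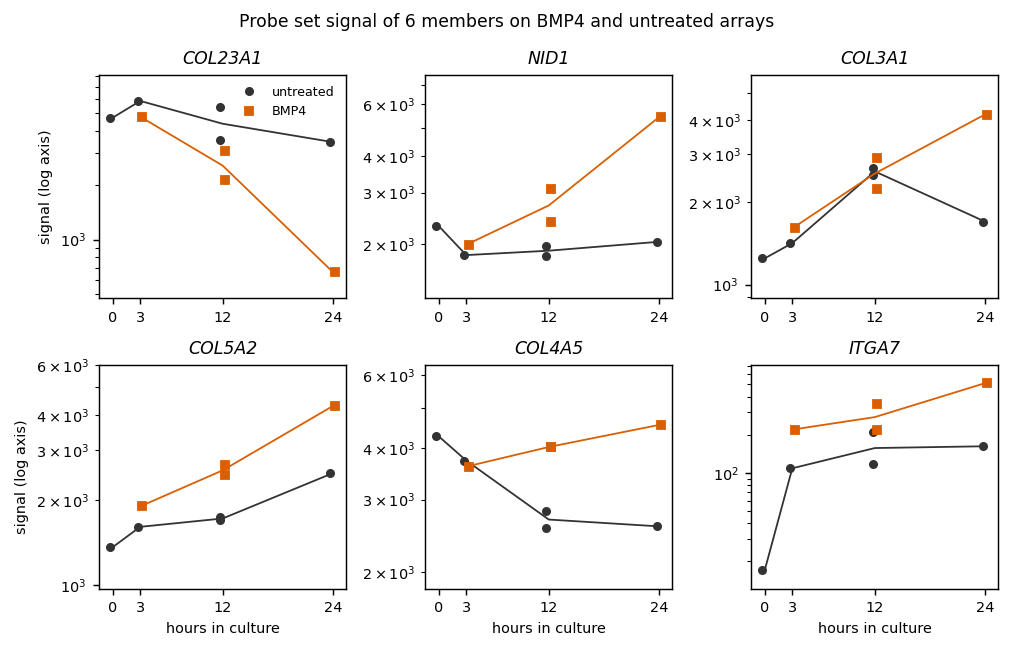
Signal of 6 members (vertical axes, log scale) against hours in culture for untreated arrays (black circles) and BMP4 arrays (orange squares), 1 point per array, with lines through the geometric means. COL23A1 was lower and NID1, COL5A2 and ITGA7 higher with BMP4 at each time, and COL3A1 and COL4A5 separated by 24 h.

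Several members came near the threshold without being called. COL5A2 was higher across times by 0.53 ± 0.12 (adjusted p = 0.057). Its neighbour in the gene order, COL3A1, which forms type III fibrils of soft tissue, read 1246 at 0 h, 1417 at 3 h, 2669 and 2513 at 12 h and 1698 at 24 h untreated and 1604 at 3 h, 2891 and 2241 at 12 h and 4180.2 at 24 h with BMP4. The COL3A1 arms overlapped at 12 h and stood apart at 24 h, by 1.29 ± 0.26 (adjusted p = 0.0605). ITGA7 was at 0.95 ± 0.24 across times (adjusted p = 0.0973).

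COL4A5, a chain of another type IV network, gave 4269 at 0 h, 3729 at 3 h, 2816 and 2554 at 12 h and 2582 at 24 h untreated and 3605 at 3 h, 4013 and 4031 at 12 h and 4549 at 24 h with BMP4. From 12 h on every BMP4 array was above every untreated one, and the difference was 0.58 ± 0.15 at 12 h (adjusted p = 0.167) and 0.81 ± 0.21 at 24 h (adjusted p = 0.147). COL4A1 and COL4A2 had the other sign, at -0.56 ± 0.17 (adjusted p = 0.174) and -0.40 ± 0.12 (adjusted p = 0.181) across times. COL14A1 was at -0.79 ± 0.19 at 12 h (adjusted p = 0.128) and -1.18 ± 0.27 at 24 h (adjusted p = 0.0914). ITGB3 was at -1.44 ± 0.34 at 24 h (adjusted p = 0.112).

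Without the 3 h arrays the comparison across times called 5 members, of which NID1 (0.81), COL4A5 (0.66) and COL5A2 (0.63) were higher and COL23A1 (-1.29) and COL14A1 (-0.92) lower. For this setting and those that follow, the share of all named genes called was not computed, so the counts cannot be set beside it. At 24 h, leaving out any 1 of the 12 h arrays added COL3A1 and ITGB3 to the calls of NID1 and COL23A1. Their 24 h differences stayed the same, since the 12 h arrays enter only the estimate of spread there. At 12 h, ITGA4 was called (-1.93, adjusted p = 0.0081) without the untreated array B, and COL2A1 (-1.57, adjusted p = 0.018) without the BMP4 array B.

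The change of the BMP4 effect from 3 h to 24 h tests whether the arms diverged. It called 0 members, beside 0.0257% higher and 0.103% lower among all named genes, and 5 were higher and 7 lower at an unadjusted p under 0.05 in limma. COL23A1 had -2.05 ± 0.46 (adjusted p = 0.29), NID1 1.29 ± 0.36 (adjusted p = 0.428), LAMA1 -2.53 ± 0.66 (adjusted p = 0.377) and COL14A1 -1.41 ± 0.38 (adjusted p = 0.395).

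Markers of some cell types moved with BMP4 too. Over all named genes tested, 1.15% were higher and 0.71% lower across times. The counts at 12 h and 24 h stand beside the shares of those times, given with the BMP4 comparisons above. Across times 7 of 12 cardiomyocyte markers were higher, as were 5 at 12 h and 2 at 24 h, where 11 were higher at an unadjusted p under 0.05 and the list's median was 0.96. The summed cardiomyocyte signal was 61233 and 58111 with BMP4 at 12 h, against 25465 and 36895 without. At 24 h it was 138125 with BMP4 and 70615 without. Also at 24 h, 1 of 7 neural crest, 2 of 8 neural and 1 of 8 AHF markers were lower. The summed neural signal at 24 h was 2724 with BMP4 and 5525 without. Over the 3 times together, 1 of 8 AHF markers was higher and 1 lower, and 1 of 8 neural markers was lower. In the cartilage and notochord list 1 of 10 was higher across times and also at 12 h. Of 12 endothelial, 6 blood and 10 epithelial and endodermal markers, 0 were called across times, at 12 h or at 24 h. Across times limma gave 2, 2 and 3 of them an unadjusted p under 0.05. The ACTB 3′ to 5′ ratio was 5.67 on the BMP4 24 h array and 3.72 on the untreated one. Their part in the NID1 and COL23A1 results was not tested.

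Chromosomal neighbours among the members were compared in the GRCg7b gene order, which holds 8 adjacent pairs. COL4A1 and COL4A2, which share a promoter region in mammals, rose together with time and lay together below the untreated arrays with BMP4. LUM and DCN rose together with time. COL5A2 and COL3A1 both had higher signals with BMP4 at 24 h, of which neither was called. COL6A1 and COL6A2, chains of the beaded type VI microfibrils, had opposite signs for BMP4 across times, at 0.52 and -0.30, and neither was called. The pairs LAMB1 and LAMB4, COL9A1 and COL19A1, COL4A5 and COL4A6, and COL4A4 and COL4A3 held no member called for time over both agents or for BMP4 with all arrays in the fit. COL4A5 was called for BMP4 without the 3 h arrays, as given above. It was also called at 12 h with the letter as a block (0.58, limma adjusted p = 0.0037), in a separate fit to the 4 arrays of 12 h alone. That fit called 10 members, among them COL4A2 (-0.52) and COL5A2 (0.56) of the pairs above. The share of all named genes called in it was not computed. Whether the letter stands for anything shared between the arms is not known.

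Genes that build, cut or bind the matrix were read from companion lists. For these and for the marker lists each gene rests on its brightest probe set. Its other probe sets and the alternative settings were read for members only. The shares over all named genes tested, beside which their counts for time stand, were 5.65% higher and 4.32% lower. For time in culture, 4 of 24 genes of collagen processing and crosslinking rose and 0 fell. They were the prolyl hydroxylase P4HA1 (0.89 ± 0.19, adjusted p = 0.0125), the lysyl hydroxylases PLOD1 (1.51 ± 0.19, adjusted p = 0.00044) and PLOD2 (0.80 ± 0.21), and the transglutaminase TGM2 (1.002 ± 0.23). The median of that list was 0.28. Of 29 matrix proteases and inhibitors 2 rose and 4 fell, among them the gelatinase MMP2 (0.93 ± 0.14) and its relative MMP9 (-3.05 ± 0.54), the inhibitor TIMP2 (-1.41 ± 0.34) and the aggrecanase-type protease ADAMTS9 (-1.19 ± 0.24).

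MMP9 gave 7.78 at 0 h, 1209 at 3 h, 247 and 502 at 12 h and 240 at 24 h untreated and 587 at 3 h, 70.7 and 311 at 12 h and 13.7 at 24 h with BMP4. It was brightest at 3 h in both arms, and the untreated rise from 0 h to 3 h was 5.12 ± 0.74 (adjusted p = 0.0206). The 0 h and BMP4 24 h signals of MMP9 were below the added 27.79, so its differences depend on that amount. MMP2 gave 3426 at 0 h, 2885 at 3 h, 6038 and 5720.3 at 12 h and 5547 at 24 h untreated and 3173 at 3 h, 7719.8 and 6655 at 12 h and 6009 at 24 h with BMP4.

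Of 23 proteoglycan and hyaluronan genes 4 rose and 1 fell with time. The collagen-binding fibromodulin FMOD (1.96 ± 0.38), the hyaluronan receptor CD44 (1.95 ± 0.41) and the glypican GPC3 (1.04 ± 0.19) rose, and GPC2 fell by 1.29 ± 0.34. In the adhesion plaque list 3 of 34 rose and 1 fell, with tensin TNS1 at 0.72 ± 0.16, the actin crosslinker ACTN1 at 0.62 ± 0.12, the GTPase RAC1 at 0.53 ± 0.14 and the kinase SRC at -1.51 ± 0.41. Other matrix receptors had 1 of 13 higher (SGCB, of the sarcoglycan complex, 0.84 ± 0.22) and 1 lower, the collagen receptor kinase DDR2 (-2.15 ± 0.25, adjusted p = 0.000236). Other matrix glycoproteins had 5 of 45 higher and 1 lower, led by matrilin-2 (MATN2, 2.87 ± 0.33, adjusted p = 0.0002).

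With BMP4 across times, 2 of 23 proteoglycan and hyaluronan genes and 1 of 45 other glycoproteins were higher. In the adhesion plaque list 2 of 34 were lower. Over all named genes tested, 1.15% were higher and 0.71% lower across times, and the shares at 24 h are given with the BMP4 comparisons above. CD44 was higher by 1.89 ± 0.29 (adjusted p = 0.00584) and GPC3 by 1.54 ± 0.14 (adjusted p = 0.000165). GPC3 read 1631 at 0 h, 959 at 3 h, 1368 and 1529.6 at 12 h and 1591 at 24 h untreated and 2003 at 3 h, 4584 and 5098 at 12 h and 5196 at 24 h with BMP4, with every BMP4 array above every untreated array of its time. MATN2 was higher by 1.30 ± 0.23 (adjusted p = 0.015), and the adaptor genes NEDD9 and LIMS1 were lower, at -0.995 ± 0.20 and -0.63 ± 0.14. At 24 h the hyaluronan link protein HAPLN1 (1.40 ± 0.26, adjusted p = 0.0476) and EDIL3, a secreted integrin ligand (2.08 ± 0.33, adjusted p = 0.0247), were higher too. The lists of collagen processing, proteases and other receptors had 0 genes called across times in limma, with 7, 7 and 5 at an unadjusted p under 0.05.

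The calls depend on how limma estimates the spread. With no trend of the variance over signal, 2 members (DCN and COL17A1) were called for time and 0 for BMP4 at 24 h or for untreated explants against 0 h. Averaging all probe sets of each gene left 6 calls for time (DCN, LUM, COL17A1, FBLN1, ITGA4 and ITGB1), and the other 11 members kept their sign without a call.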

How the data were processed

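RNA of 9 chick explant samples was measured on Affymetrix arrays, 1 array a sample. The authors deposited linear probe set intensity. The submitters' processing notes name MAS5, without a version or scaling target. The 2% trimmed mean signal was 503.66 to 504.72 per array, so the values were used as deposited and not scaled again. The table carries no detection calls, and the number of arrays limits the precision.

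The table holds 38535 probe sets, of which 96 controls were left out. By the array annotation 27168 probe sets have 1 gene symbol, 177 have several and 11094 have none. Log2 values were computed here from the deposited intensity plus 27.79 (the table's 25th percentile). Testing required a signal over an array's own 40th percentile on 2 or more arrays.

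Differences were tested two-sided with limma 3.58.1 (R 4.3.3), whose moderated variances followed a trend over signal. For BMP4 across times and for time over both agents, time and agent were fitted to the 8 cultured arrays (4 residual degrees of freedom). That fit has no term for a BMP4 effect that changes with time. Such a change therefore enters its spread along with the differences within the 12 h pairs. All other comparisons came from 7 group means over the 9 arrays (2 residual degrees of freedom), so a lone array is taken to vary as the 12 h pairs do.

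The members, roles, companion lists and marker lists were chosen with earlier results of these data known. Values on every array are given for called members and for most of a fixed set of matrix genes. Of that set, FBN1, FBN2 and POSTN are given by their differences only, and ITGA5 is not among the members. Up to 4 called genes of a companion list are named by size of change. More of a list, and MMP2, MMP9 and GPC3 by array, were added after their values were seen. The labels tie no A to the A of the other arm and only 2 pairs exist, so whether the letter stands for anything shared is not known.

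Alternatives were 100 in place of 27.79, no filter, no variance trend, quantile normalization, averaging all probe sets of a gene, leaving out each 12 h array, the 3 h, 12 h or 24 h arrays, and the letter as a block. The block at 12 h was fitted to the 4 arrays of 12 h alone. Across times, the 3 h and 24 h arrays, which have no letter, were put with A. The time course within each arm, added after seeing the data, came from the 7 group means.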

Additional observations from a re-analysis of the deposited data

How the results depend on the processing

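Members called under other settings were counted. Apart from the arms alone, shares over all named genes were not computed under these settings. The counts therefore cannot be set beside such a share. For BMP4 across times 5 were called without the 3 h arrays in place of 0. For BMP4 at 12 h, leaving out 1 of the 12 h arrays gave 0 to 1. With the replicate block at 12 h, a separate fit of agent and letter to the 4 arrays of 12 h alone, 10 were called (4 higher, 6 lower). That fit differs from the main one in its arrays as well as in the block, and it leaves fewer residual degrees of freedom. The labels do not tie the letter of 1 arm to that of the other, and the A minus B differences of the arms correlate at 0.126 over probe sets. Across times, where the 3 h and 24 h arrays without a letter were put with A, the block changed no count. For BMP4 at 24 h, no filter gave 1, no variance trend 0, averaging all probe sets of a gene 0, and leaving out 1 of the 12 h arrays 4 in each case, in place of 2. For 24 h against 3 h, no variance trend gave 2, the mean of probe sets 6, untreated arrays alone 7, BMP4 arrays alone 8 and leaving out a 12 h array 14 to 19, in place of 17. For untreated 3 h against 0 h, no filter, no variance trend and the mean of probe sets each gave 0 in place of 1. At 12 h against 0 h, no variance trend gave 0, the mean of probe sets 3 and leaving out a 12 h array 4 to 9, in place of 5. At 24 h against 0 h, no variance trend gave 0 in place of 6, and leaving out a 12 h array 7 to 8. The cause was not tested. The counts of the arms alone are contrasts of 1 array against 1 from the 7 group means over the 9 arrays. They do not come from the fit of time and agent to the 8 cultured arrays, and their spread is that of the 12 h pairs of both arms. The 100 added and quantile normalization kept every count. The 31 calls of single members had 313 alternative values, of which 230 kept the call, 83 lost it and 0 reversed. No filter and no variance trend left each difference itself unchanged, as did leaving out a 12 h array where 12 h is not compared. Those alternatives could not reverse a sign. Lone arrays at 0, 3 and 24 h, the few residual degrees of freedom and dim signals near 27.79 limit what can be called.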

Other observations

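Some members differed widely between the 12 h arrays A and B of 1 arm. ITGA4 differed by 1.87 and COL8A1 by -1.64 (A minus B, log2) without BMP4. COL2A1 differed by -1.42, COL4A3 by -1.20 and ITGA9 by 1.03 with BMP4. The A minus B difference of ITGA4 with BMP4 was 0.76, so A was higher in both arms, while COL8A1 was at 0.90 with BMP4, the other way from the untreated pair.

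Of the genes that match by spelling only, ITGB1BP3, a nicotinamide riboside kinase also described as a muscle integrin-binding protein, had signals of 26076 to 30104 on the 9 arrays. ITGB3BP, a centromere protein, ranged from 461 to 1527, and its lowest signals were those of both 12 h B arrays. ITGBL1, a secreted protein with integrin-like repeats, ranged from 34.5 on the 0 h array to 194 on the untreated 24 h array. None of these was called in a comparison with all arrays in the fit. ITGB3BP was called lower at 12 h than at 0 h without the untreated array A (-1.67, adjusted p = 0.048).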
